A study of Mus musculus with 9 samples.

Results

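The livers described here are the 3 of the 9 sequenced samples that came from CCl4-treated mice given the control virus, the NC + CCl4 group. They were chosen by their labels alone, and the deposited table gives a TPM value for 17305 genes in each. TPM (a normalised transcript abundance) divides the reads of a gene by its length and scales every library to the same total, so that genes can be ordered by level within a library. The mice were male Balb/c animals aged 8 weeks that received carbon tetrachloride (CCl4) for 8 weeks. All of them also received AAV8-NC, an adeno-associated virus of serotype 8 with a control insert, through the tail vein. According to the labels, the virus followed the first CCl4 dose by 4 weeks, at 1e+12 pfu per mouse. The study's methods text gives another interval and another dose, and the conflict could not be settled. Each library was taken as 1 mouse. The other samples of the series carried shRNA vectors and are not compared here. No liver without CCl4 was examined, so the values describe livers under treatment and not an effect of CCl4 or of the virus.

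CCl4 is oxidised by cytochrome P450 enzymes, above all CYP2E1, in the hepatocytes around the central vein, and the radicals formed kill these cells. Repeated doses recruit macrophages and turn hepatic stellate cells into collagen-producing myofibroblasts, while the surviving hepatocytes go on secreting most plasma proteins. The liver transcriptome is therefore known to be dominated by few secretory genes, with injury, immune and matrix genes at much lower levels.

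The libraries held 15967731 to 16816431 expected counts (reads that the authors' software assigned to a gene), and 11825 to 11911 genes reached a TPM of 1. Y-linked Ddx3y, a marker of male cells, stood at 18.4, 20.8 and 20.6 TPM in replicates 1, 2 and 3. Fmo2, taken here as the host gene of lnc-Helf, the RNA targeted elsewhere in the study, stood at 95, 87.4 and 117 TPM. These values are for the whole gene and do not measure lnc-Helf. Replicate 3 differed more from the others than they did from each other: 147 genes lay 2-fold or more apart between replicates 1 and 2, against 287 between replicates 1 and 3 and 389 between replicates 2 and 3. For most gene classes described below as varying with replicate 3, the count of variable genes is therefore also given without it. With 3 mice of a single group there was nothing to test, and every statement below is a description of these 3 livers with its spread.

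A small set of genes made up most of the transcript pool. The 10 genes with the highest mean TPM held 22.5% of it, the first 25 held 32.4% and the first 100 held 48.9%. It took 110 genes to reach 50% and 2604 genes to reach 90%. On the mean of the 3 livers, 11877 genes reached 1 TPM, 11448 of them did so in every library, and 769 genes were listed at 0 in all 3. The 135 genes at 1000 TPM or more accounted for 52.8% of the pool. The 5473 genes between 1 and 10 TPM accounted for 2.51%, and the 4659 genes above 0 but under 1 TPM for 0.118%. Of the table's gene numbers, 17046 were annotated as protein coding in RefSeq and held 99.7% of TPM. Only 67 were annotated as lncRNA, so the table says little about noncoding RNA.

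Albumin (Alb, gene 11657 on chromosome 5), the main carrier and osmotic protein of plasma, was the most abundant transcript at 69644, 74515 and 102270 TPM in replicates 1, 2 and 3. Its mean of 82143 ± 17600 TPM (SD, n = 3) was 8.21% of the pool, and replicate 3 lay above the other livers. Apoa2, an apolipoprotein of high-density lipoprotein, followed at 25025, 19906 and 21176 TPM. Apoe, the ligand for uptake of lipoprotein remnants, measured 22348, 20061 and 23480 TPM. The means of Apoa2 and Apoe, 22036 ± 2665 and 21963 ± 1742 TPM (SD, n = 3), did not differ beyond their spread. Serpina1d, an alpha-1 antitrypsin gene, gave 18067, 21853 and 18024 TPM, and the iron carrier transferrin (Trf) gave 16687, 18041 and 18721 TPM. These values overlapped, so the order of these genes was not fixed either. The list went on with Apoa1, Serpina1c, the fetuin gene Ahsg, Apoc1 and Serpina1b, all between 10379 and 17243 TPM in every library.

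**Figure D1:**
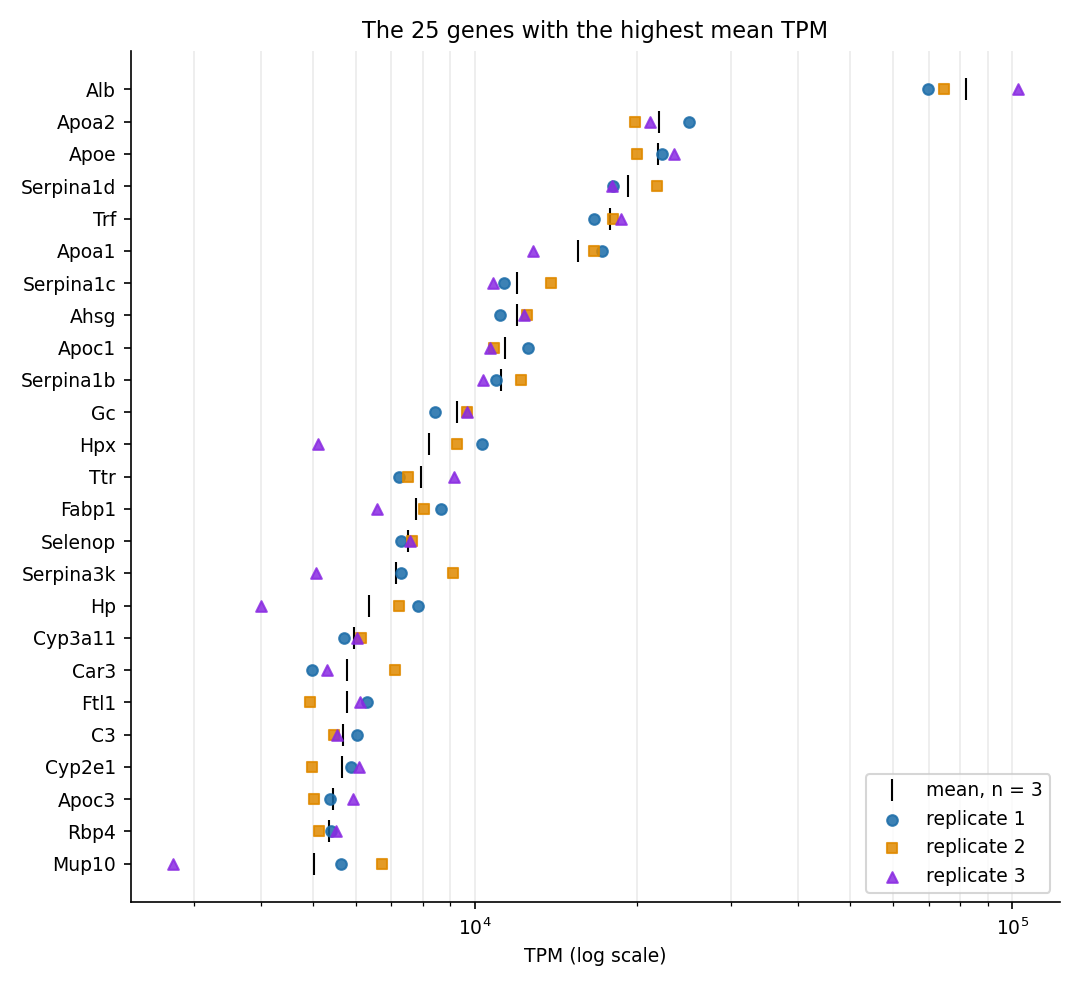
TPM (log scale) of the 25 genes with the highest mean TPM, with a symbol per replicate and a bar at the mean of 3 livers. Alb stands apart from the rest at 69644 to 102270 TPM, and Hpx, Serpina3k, Hp and Mup10 have replicate 3 well below the other livers.

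Further down the list came genes of several hepatocyte tasks. Hemopexin (Hpx), which binds free heme, measured 10328, 9278 and 5100 TPM, and haptoglobin (Hp), which binds free hemoglobin, measured 7828, 7237 and 4010 TPM. In both, replicates 1 and 2 lay together and replicate 3 below them, with highest-to-lowest ratios of 2.03 and 1.95. Selenop, the selenium carrier of plasma, was among the steadiest of the abundant genes at 7302, 7632 and 7565 TPM. Cyp3a11, a drug-metabolising cytochrome P450, was also steady at 5713, 6132 and 6050 TPM. Cyp2e1, the enzyme that activates CCl4, gave 5894, 4976 and 6084 TPM and ranked number 22. Among the 25 genes, 13 had a highest-to-lowest ratio under 1.25 and 2, Hpx and Mup10, had a ratio of 2 or more, as did 5.15% of all genes examined.

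Short reads cannot always be assigned between near-identical genes. Of the 25 genes, 18 shared under 10% of their 50-base windows with transcripts of another gene in GENCODE M21, while 5 shared more than 50%. Those were Serpina1d with 50.9%, Trf with 59.4%, Serpina1c with 74.2%, Ftl1 with 50.9% and Mup10 with 76.5%. The reads were 50 bases long, so the split of reads between these genes and their copies rests on the authors' estimation. For Trf and Ftl1 the partners were a readthrough model (Gm20425) and a pseudogene (Ftl1-ps1). Alb shared 0% of its windows.

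The promoter of Alb is shown because this gene alone supplied the largest single share of the pool. The RefSeq window of 250 bases before to 50 bases after the start site lies at chr5:90460620-90460919 (GRCm38.p6, plus strand). Capitals mark a match to TTGCNNAA, searched on both strands, the pattern bound by C/EBP factors of hepatocytes:

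Alb: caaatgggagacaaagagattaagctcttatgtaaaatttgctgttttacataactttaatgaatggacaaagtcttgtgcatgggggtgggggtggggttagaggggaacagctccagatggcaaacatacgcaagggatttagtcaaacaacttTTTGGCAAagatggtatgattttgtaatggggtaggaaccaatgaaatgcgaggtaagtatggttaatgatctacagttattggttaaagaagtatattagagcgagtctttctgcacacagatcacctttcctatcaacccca

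This pattern was found in 9 of the 18 promoters available for the 25 most abundant genes (50.0%) and in 11.1% of the 13589 promoters available for genes of the table. The TATA box letters, TATAAA, gave the same count of 9 of 18 promoters (50.0%) against 11% of all promoters. A match is a description of the letters and no proof of a bound site.

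Plasma proteins were the largest component. The 7 classes of secreted plasma proteins, 192 genes in all, held 38.2, 39.1 and 38.7% of TPM in replicates 1, 2 and 3 (38.7 ± 0.454%, SD, n = 3). Their sum was thus nearly the same in the 3 livers while several of the classes differed. Plasma carrier proteins held 15.9, 16.6 and 19.1%, with the rise in replicate 3 found in Alb. Apolipoproteins and lipoprotein assembly genes held 9.58, 8.61 and 8.86%. Serine protease inhibitors held 5.57, 6.53 and 5.18%, most of it in Serpina1 genes. Coagulation and fibrinolysis genes held 1.78 ± 0.137% (SD, n = 3), led by the fibrinogen chains Fgb (3853, 3937 and 2991 TPM) and Fgg (2658, 2855 and 2078 TPM). Complement genes held 1.73 ± 0.0802% (SD, n = 3), with C3, the central component of the cascade, at 6029, 5476 and 5537 TPM. Major urinary proteins held 1.80, 2.24 and 1.11%, and acute phase proteins held 1.80, 1.53 and 1.23%. In both of these classes replicate 3 was the lowest liver.

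The shares depend on whether transcripts or reads are counted. Short transcripts weigh more in TPM than in reads, and as a share of expected counts the apolipoproteins held 4.62% in place of 9.02% and the ribosomal proteins 2.69% in place of 6.54%. Collagens and matrix genes, with long transcripts, moved the other way, from 0.242% of TPM to 0.622% of counts.

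**Figure D2:**
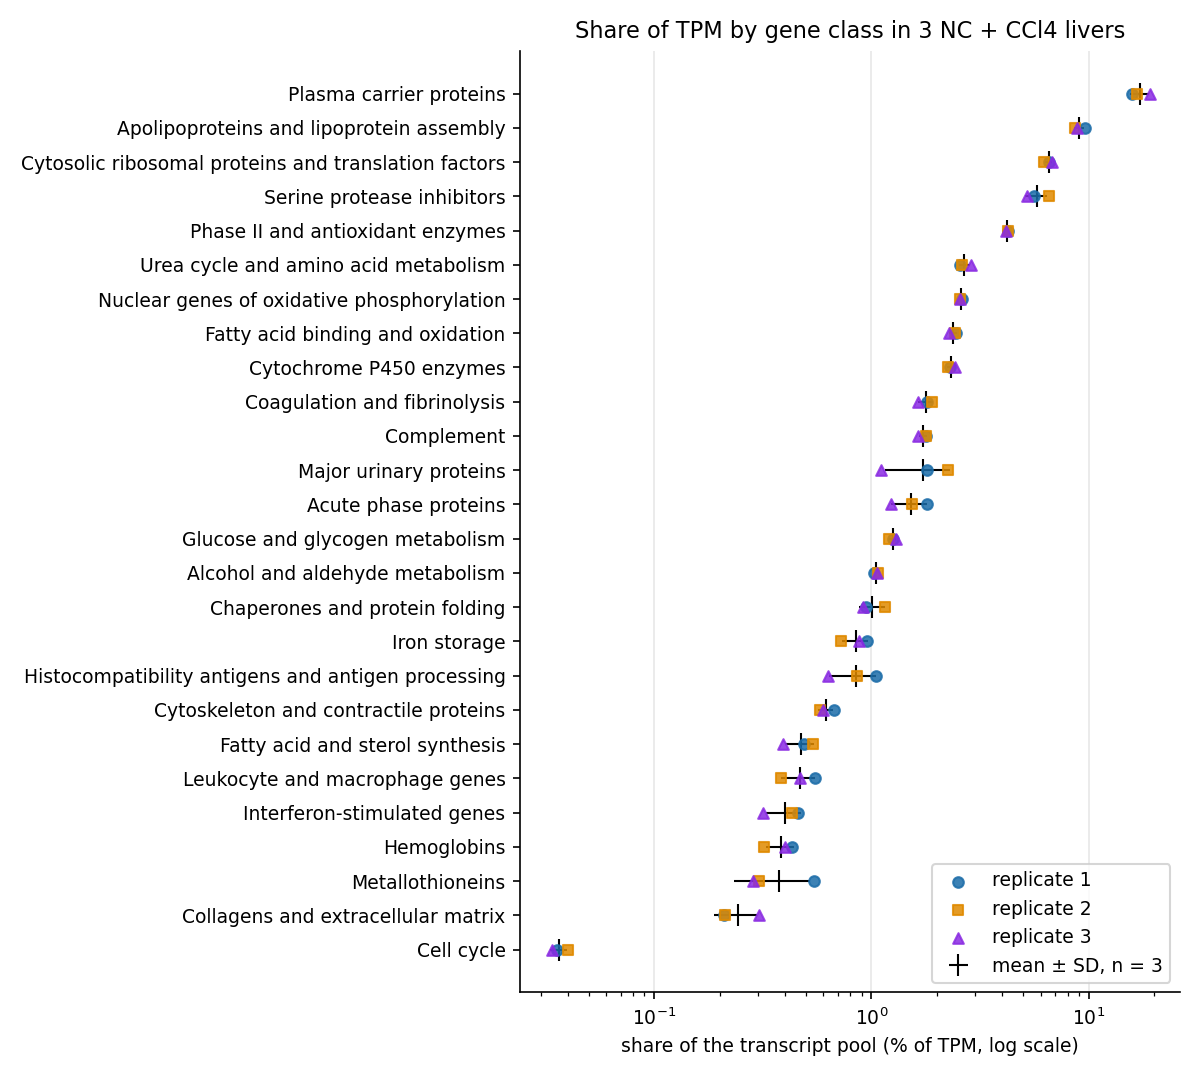
Share of TPM (percent, log scale) held by each of 26 exclusive gene classes, with a symbol per replicate and bars for mean ± SD (n = 3). Plasma carrier proteins lead at 15.9 to 19.1%, cell cycle genes close the list at 0.0365%, and major urinary proteins, acute phase proteins and histocompatibility genes have replicate 3 at the low end.

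Enzymes that handle foreign compounds were the next functional group. Cytochrome P450 enzymes, phase II and antioxidant enzymes, and alcohol and aldehyde enzymes together held 7.57, 7.57 and 7.62% of TPM. The P450 class contributed 2.32 ± 0.0852% (SD, n = 3) with 67 of its 89 genes at a mean TPM of 1 or more. Behind Cyp3a11 and Cyp2e1 came Cyp2d9, a P450 known to be male-biased in mouse liver, at 1215, 1229 and 1148 TPM. Phase II and antioxidant enzymes contributed 4.21 ± 0.0644% (SD, n = 3). Gstp1, a glutathione transferase, measured 4644, 4569 and 4464 TPM, and the microsomal transferase Mgst1 measured 4702, 4420 and 3882 TPM. Both glutathione transferases thus lay under the level of Cyp2e1 in every library. The metal-binding metallothioneins, a class outside that sum, held 0.543, 0.302 and 0.286%. Mt1 was at 3218, 1823 and 1900 TPM and Mt2 at 2209, 1199 and 964 TPM. Replicate 1 lay above the other livers for both.

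Intermediary metabolism took similar shares in every liver. Urea cycle and amino acid genes held 2.56, 2.62 and 2.86% of TPM, led by Bhmt, which remethylates homocysteine, at 3378, 3956 and 3412 TPM. Ass1, a urea cycle enzyme, was at 2364, 2198 and 3417 TPM, with replicate 3 highest. Fatty acid binding and oxidation genes held 2.38 ± 0.0959% (SD, n = 3), with the cytosolic carrier Fabp1 at 8666, 8036 and 6587 TPM. Glucose and glycogen genes held 1.25 ± 0.0402% (SD, n = 3), with the glycolytic enzyme gene Gapdh at 2346, 2207 and 2432 TPM. Fatty acid and sterol synthesis genes held 0.487, 0.538 and 0.393%.

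Among genes that every cell uses, cytosolic ribosomal proteins and translation factors held 6.54 ± 0.268% (SD, n = 3) and nuclear genes of oxidative phosphorylation held 2.57 ± 0.0317% (SD, n = 3). The elongation factor Eef1a1 led the former at 4616, 4556 and 5170 TPM. In the latter, Atp5b, a subunit of ATP synthase, at 1053, 1178 and 1214 TPM and Ndufa4, a respiratory chain subunit, at 1121, 1151 and 1128 TPM did not differ beyond their spread. Chaperones and protein folding genes held 0.943, 1.16 and 0.910%, with replicate 2 highest. The ferritin chains Ftl1 (6305, 4936 and 6108 TPM) and Fth1 (3212, 2293 and 2684 TPM), which store iron, made up a class of 0.851 ± 0.117% (SD, n = 3), lowest in replicate 2. Genes outside all classes, 16088 in number, held 32.4, 32.7 and 32.7%.

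Genes of fibrosis and inflammation, for which the CCl4 model is used, formed a small part of the pool. Collagens and extracellular matrix genes held 0.209, 0.212 and 0.304% of TPM, with replicate 3 above the others. Fibronectin (Fn1) was at 396, 343 and 452 TPM, and the proteoglycan decorin (Dcn) at 283, 341 and 473 TPM. Col18a1, the basement membrane collagen also made by hepatocytes, was at 255, 264 and 269 TPM. The fibrillar collagens were lower: Col3a1 gave 88.8, 108 and 174 TPM, Col1a2 gave 62.1, 55.2 and 106 TPM, and Col1a1 gave 46.8, 32.2 and 70.7 TPM. Replicate 3 was the highest liver for each fibrillar chain named. Leukocyte and macrophage genes held 0.552, 0.384 and 0.467%, led by the lysozyme gene Lyz2 (1488, 746 and 1413 TPM) and by Spp1, the osteopontin gene (543, 352 and 481 TPM). Interferon-stimulated genes held 0.458, 0.429 and 0.316%. Histocompatibility antigens and antigen processing genes held 1.05, 0.859 and 0.634%, of which B2m, the light chain of class I molecules, supplied most at 5541, 4722 and 3723 TPM. Cell cycle genes held 0.0365 ± 0.00336% (SD, n = 3).

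The label of the tissue was checked against cell-type markers. All 12 hepatocyte markers were above the filter on low values and summed to 108762, 112947 and 138559 TPM. Their highest-to-lowest ratios stayed under 2, with a median of 1.30 against 1.22 for all genes examined. Stellate cell markers (18 genes) summed to 642, 759 and 1090 TPM, with replicate 3 highest. Of the 17 above the filter 6 had a highest-to-lowest ratio of 2 or more, and 3 of 17 without replicate 3. Over all genes examined, 562 of 10909 (5.15%) had such a ratio, and 143 genes without replicate 3. Myofibroblast markers (12 genes) summed to 106, 82.8 and 149 TPM. Among them Acta2, smooth muscle actin, was at 5.35, 1.99 and 6.44 TPM, and Timp1, an inhibitor of matrix proteases, at 22.7, 8.57 and 22.5 TPM, so that replicate 2 was lowest for both. Kupffer cell markers (12 genes) summed to 444, 549 and 356 TPM. Markers of monocyte-derived macrophages (13 genes) summed to 2341, 1375 and 2249 TPM, mostly through Lyz2 and Spp1. Spp1 is also a cholangiocyte marker, and the cholangiocyte sum of 3514, 3126 and 3282 TPM came mainly from Clu (2866, 2678 and 2678 TPM), which hepatocytes also make. The bile duct keratin Krt19 alone was at 8.02, 6.99 and 18.6 TPM. In RNA from whole tissue, fewer cells of a type and less RNA per cell cannot be told apart.

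**Figure D3:**
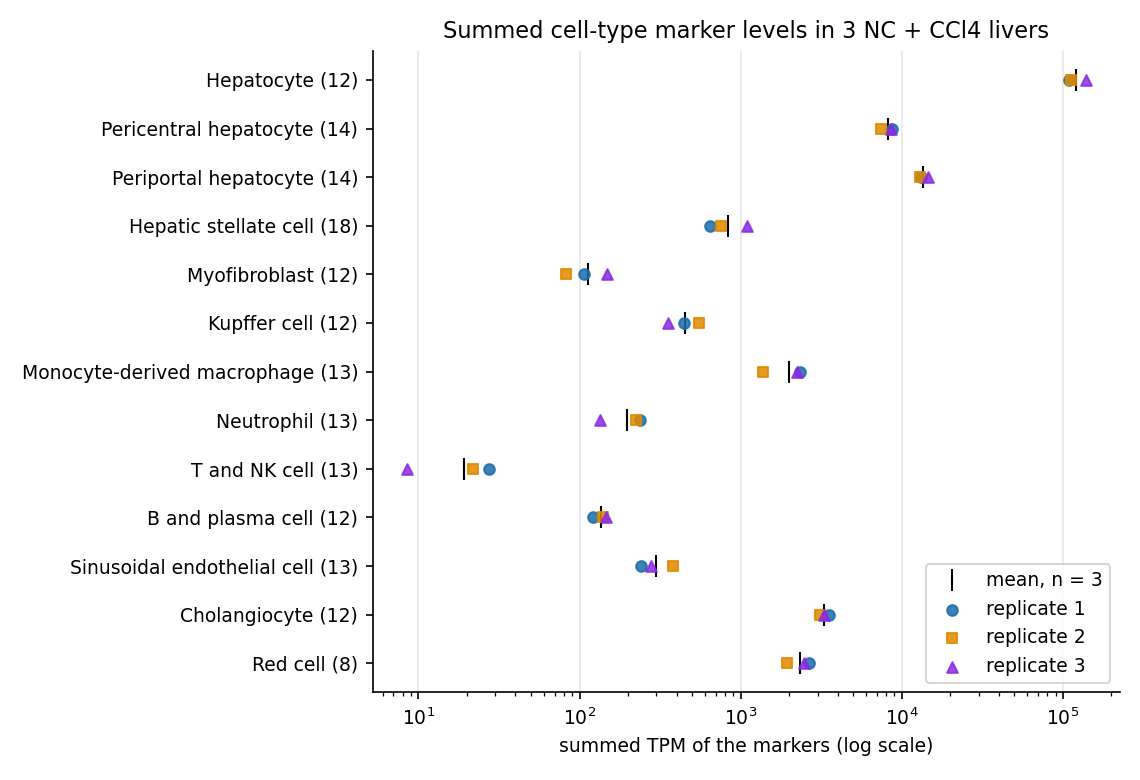
Summed TPM (log scale) of the markers of 13 cell types, with a symbol per replicate, a bar at the mean and the number of markers in the table in brackets. Hepatocyte markers lie between 108762 and 138559 TPM, stellate cell markers between 642 and 1090 TPM, and T and NK cell markers at 8.45 to 27.5 TPM, with replicate 3 lowest for the last.

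Endothelial markers followed replicate 2. All 13 markers of sinusoidal endothelial cells were above the filter, and each was highest in replicate 2. Over all 10909 genes examined, the highest liver was replicate 1 for 2712, replicate 2 for 3727 and replicate 3 for 4470. The lowest liver was replicate 1 for 4322, replicate 2 for 3444 and replicate 3 for 3143. The 13 endothelial markers summed to 241, 378 and 279 TPM. Lyve1, a hyaluronan receptor, measured 6.78, 16.4 and 10.2 TPM, and Kdr, the receptor for vascular endothelial growth factor, measured 5.42, 15 and 8.68 TPM. These were the 2 markers with a ratio of 2 or more. Clec4g, a lectin of sinusoidal cells, measured 51.6, 84.6 and 61.7 TPM.

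Lymphocyte and neutrophil markers were low. T and NK cell markers summed to 27.5, 21.7 and 8.45 TPM over 13 genes, and each was too low for the filter. The granzyme gene Gzmb rested on 48, 45 and 5 counts. Neutrophil markers summed to 236, 224 and 133 TPM, with S100a9 at 93.8, 79.1 and 54.9 TPM. Of the 6 neutrophil markers above the filter, 4 were lowest in replicate 3 and 2 in replicate 2. For B and plasma cells the sum was 121, 139 and 146 TPM, nearly all of it from Sdc1 (105, 115 and 117 TPM), which hepatocytes express as well. All 3 of these markers above the filter were highest in replicate 3, among them Jchain, the joining chain of secreted antibodies, at 4.35, 6.27 and 15.3 TPM. Of the tissues that might have been cut along with the liver, skeletal muscle had Ckm and Mb listed at 0 in every library, pancreas had Cpa1 and Cpb1 at 0, and adipose tissue had Plin1 and Retn at 0. Other members of these lists were present. The pancreas list summed to 6.30, 5.29 and 5.77 TPM, nearly all from the elastase gene Cela1 (6.09, 4.80 and 5.67 TPM), and the muscle list to 2.11, 1.42 and 1.63 TPM, mostly from Mylpf on 7 to 9 counts. The adipose list summed to 5054, 7177 and 5402 TPM, mostly from Car3, which hepatocytes also make, with Fabp4, also found in macrophages and endothelium, at 78.4, 55 and 99.7 TPM and Cidec at 3.28, 2.93 and 2.13 TPM. The part of other tissues in the results was not tested.

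The spread between livers was measured as the highest TPM divided by the lowest. It was taken for the 10909 genes with a mean of at least 1 TPM and at least 50 expected counts, and a ratio of 2 or more was called variable. The median ratio was 1.22, and 6138 genes (56.3%) stayed under 1.25. In all, 562 genes were variable, or 5.15%. This share is the background for every count below that uses all 3 livers. The lists set against it were chosen with earlier results of these data known, so the contrast is a description only. A ratio of 3 or more was found for 145 genes, of 5 or more for 48 and of 10 or more for 15. The median coefficient of variation was 10.4%, against 5.33% from counting error alone, and 8.51% remained after counting error was taken out. In edgeR, the common biological coefficient of variation was 16.0%. At the threshold, Lyz2 with a ratio of 1.99 and Dpep1 and H2-DMa with 2.0 fell just short, while Ctgf, Timeless and Plekhg1, also 2.0 after rounding, were just inside.

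Replicate 3 was the highest liver for 229 variable genes (2.10% of those examined) and the lowest for 232 (2.13%). Replicate 1 was highest for 174 (1.60%) and lowest for 110 (1.01%), and replicate 2 was highest for 159 (1.46%) and lowest for 220 (2.02%). Without replicate 3, 143 genes (1.31%) differed 2-fold or more between the remaining livers, against 386 without replicate 1 and 278 without replicate 2. Counts below that leave out replicate 3 should be read against 1.31%, and those without replicate 2 against the 278 genes.

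**Figure D4:**
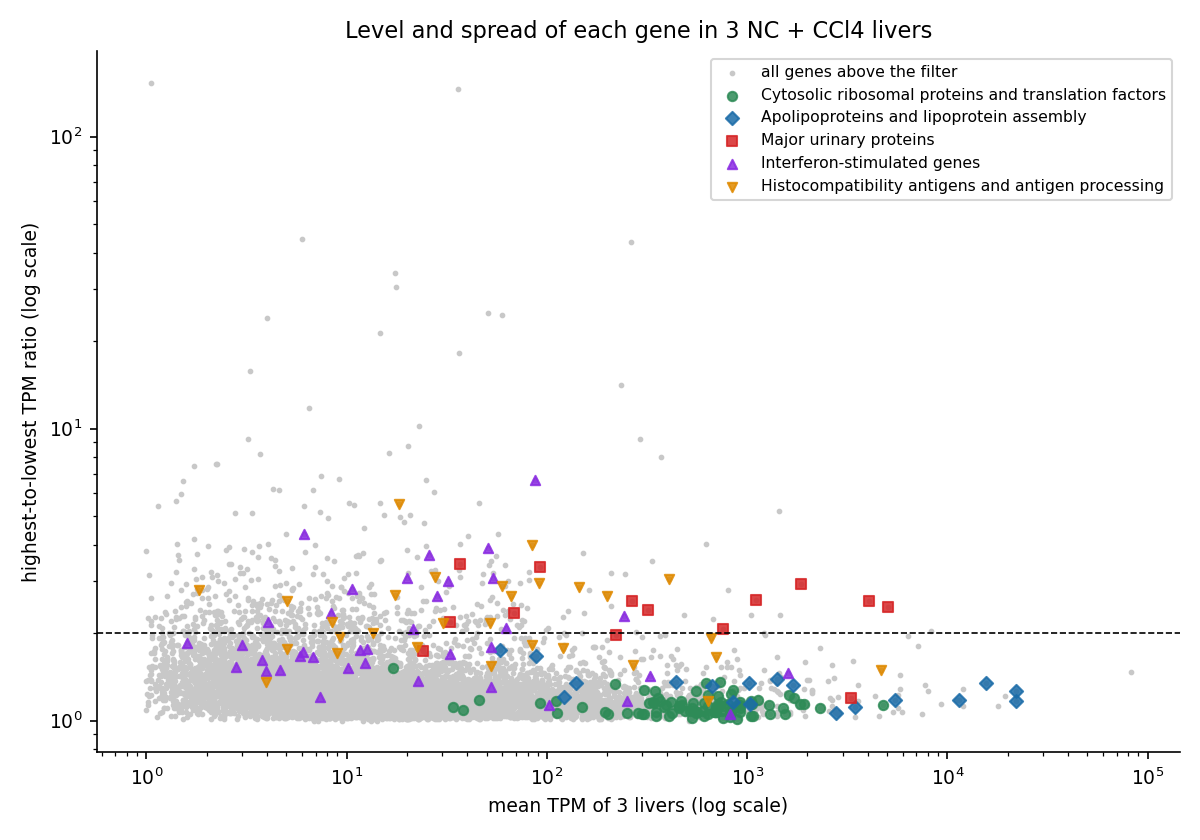
Highest-to-lowest TPM ratio against mean TPM (both log scales) for the 10909 genes above the filter, with members of 5 classes in colour and a dashed line at a ratio of 2. Ribosomal genes stay at or under 1.51 and apolipoprotein genes at or under 1.74, while most major urinary protein genes lie above the line and interferon-stimulated genes reach 6.66.

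The 15 named genes with the largest ratios came from several functions, and 13 of them were lowest in replicate 3. Dmbt1, a scavenger receptor of epithelia, gave 3.06, 0.02 and 0.08 TPM, but on 1 count in replicate 2, so that its ratio of 153 had a 95% counting interval of 27.1 to 6075. Guca2a and Guca2b, the neighbouring genes of the gut peptides guanylin and uroguanylin, had the same order of livers: 77.4, 29.3 and 0.530 TPM for the former and 36.4, 15.6 and 1.19 TPM for the latter. The ratio of Guca2a, 146, rested on 2 counts in replicate 3 and had an interval of 40.1 to 1211. These intervals cover counting error and not the spread between mice. Ubd, an interferon-inducible ubiquitin-like modifier, was the most abundant of the named genes with a ratio of 10 or more, at 466, 316 and 10.7 TPM. Its ratio of 43.6 had an interval of 34.9 to 55.1.

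Metabolic genes were also among them. Dio1, which activates thyroid hormone, measured 27.2, 24.1 and 0.80 TPM, on 12 counts in replicate 3. Adhfe1, a mitochondrial alcohol dehydrogenase, measured 57.2, 116 and 4.74 TPM. The adipokine gene Serpina12 (vaspin) measured 8.89, 8.75 and 0.20 TPM. For all of these, replicate 3 lay far below both other livers. Cyp2b9, a P450 known from female mouse liver, went the other way at 5.36, 9.28 and 54.6 TPM, with replicate 3 highest.

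Major urinary protein genes varied together. These pheromone carriers are made in male mouse liver under pulses of growth hormone. Of their 24 genes in the table, 14 were above the filter and 11 of those (78.6%) were variable, against 5.15% of all genes. All 11 were highest in replicate 2 and lowest in replicate 3. Mup10 was at 5632, 6710 and 2744 TPM, Mup1 at 4274, 5643 and 2204 TPM, and Mup20, the gene of the pheromone darcin, at 758, 1020 and 495 TPM. Mup3 did not take part, at 2953, 3411 and 3512 TPM. When replicate 3 was left out, 1 of 14 genes was variable. A median of 78.2% of the 50-base windows of these genes was shared with another gene, so the sum of the class, 17994, 22410 and 11056 TPM, is firmer than its split. Mup3 shared 13.3% of its windows.

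Other male-biased genes were also lowest in replicate 3. Of 13 male-biased liver genes above the filter, 11 were variable (84.6%), all lowest in replicate 3, and 9 of them highest in replicate 2. Since 4 of the 13 are major urinary protein genes, the 9 others are the separate part, and 7 of those were variable. Selenbp2, a selenium-binding protein of male liver, gave 625, 997 and 247 TPM, and the organic anion carrier Slco1a1 gave 2.16, 4.22 and 1.10 TPM. The male-biased Cyp2d9 and Gstp1 had ratios of 1.07 and 1.04. Female-biased genes went the other way: 4 of 8 above the filter were variable, and all 4 were highest in replicate 3. Besides Cyp2b9 these included the hydroxyacid oxidase Hao2 (1.85, 6.47 and 10 TPM). Since 3 of the 8 also belong to the P450 class, the 5 others are the separate part, and 3 of those were variable. The median log2 distance from the mean of the 3 livers was 0.02, 0.44 and -0.77 for male-biased and -0.28, -0.24 and 0.55 for female-biased genes, against -0.03, 0.00 and 0.02 for all genes. In the absence of replicate 3, 1 of 13 male-biased and 1 of 9 female-biased genes were variable.

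Acute phase genes, which hepatocytes induce upon inflammatory cytokines, split into members. Of 13 genes above the filter, 7 were variable (53.8%), and 6 of these were lowest in replicate 3. The serum amyloid genes Saa1 (461, 365 and 50.1 TPM) and Saa2 (385, 291 and 27.4 TPM) had ratios of 9.19 and 14.1. Lcn2, the iron-chelator-binding lipocalin, measured 2238, 1642 and 427 TPM, and the orosomucoid gene Orm2, listed with the carrier proteins, measured 739, 283 and 92.7 TPM. Saa3 and the hepcidin genes did not follow. Saa3, a serum amyloid gene also made by macrophages, was at 1079, 878 and 1725 TPM, Hamp, the iron hormone hepcidin, at 3449, 2566 and 4115 TPM, and Hamp2 at 254, 166 and 582 TPM, all highest in replicate 3. Lbp, which binds bacterial lipopolysaccharide, stayed at 161, 150 and 147 TPM. Between replicates 1 and 2 alone, 0 of 13 genes were variable.

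The promoters of Saa1 and Saa2 are shown because these genes were low together in replicate 3 and share 31.5% and 30% of their transcript windows with another gene, in each case mainly with one another. They lie at chr7:46742931-46743230 (minus strand) and chr7:46751583-46751882 (plus strand) in GRCm38.p6, from RefSeq, and capitals mark the TTGCNNAA pattern:

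Saa1: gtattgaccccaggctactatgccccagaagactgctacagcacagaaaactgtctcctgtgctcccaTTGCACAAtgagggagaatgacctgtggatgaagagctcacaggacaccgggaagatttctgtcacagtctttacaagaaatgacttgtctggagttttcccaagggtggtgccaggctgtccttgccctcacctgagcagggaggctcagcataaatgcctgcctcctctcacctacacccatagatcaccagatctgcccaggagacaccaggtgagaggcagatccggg
Saa2: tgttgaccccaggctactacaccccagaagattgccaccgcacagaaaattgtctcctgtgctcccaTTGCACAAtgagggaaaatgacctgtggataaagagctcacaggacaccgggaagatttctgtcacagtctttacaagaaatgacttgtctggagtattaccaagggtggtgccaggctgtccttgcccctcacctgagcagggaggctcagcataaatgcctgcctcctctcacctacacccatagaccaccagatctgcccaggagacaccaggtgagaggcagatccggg

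The match starts 182 bases before the start site of Saa1 and 183 bases before that of Saa2. Of the 10 promoters available for the 13 acute phase genes, 5 (50.0%) held this pattern, against 11.1% of all promoters. The NF-kB pattern, GGG and TTTCC set 2 bases apart, was found in 0 of these 10 and in 2.02% of all promoters.

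Interferon-stimulated genes were lowest in replicate 3 almost throughout. All 37 genes of the list were above the filter, 35 had their lowest value in replicate 3, and 14 (37.8%) were variable, all with replicate 3 lowest. Over all genes examined, variable or not, replicate 3 was lowest for 3143 of 10909. Igtp, an interferon-inducible GTPase of pathogen defence, measured 155, 85 and 23.3 TPM. The antiviral gene Ifit2 was at 7.0, 9.25 and 2.13 TPM. The most abundant members moved less: Ifitm3, which blocks virus entry, was at 1806, 1765 and 1234 TPM, and Ifitm2 at 846, 804 and 803 TPM. Outside the list, replicate 3 was also lowest for the GTPase gene Tgtp1 at 105, 43 and 4.21 TPM and the chemokine Cxcl9, which draws T cells, at 57, 48.6 and 3.16 TPM. Without the third liver, 0 of 37 genes were variable.

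The promoters of Igtp (chr11:58199306-58199605, plus strand) and Tgtp1 (chr11:48992197-48992496, minus strand; both RefSeq, GRCm38.p6) are shown because these GTPase genes had among the largest spread and the same order of livers. Capitals mark the GAS pattern TTCNNNGAA, bound by factors activated by interferon gamma, and the ISRE pattern, GAAA and GAAA set 2 bases apart, bound by interferon regulatory factors, both searched on both strands:

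Igtp: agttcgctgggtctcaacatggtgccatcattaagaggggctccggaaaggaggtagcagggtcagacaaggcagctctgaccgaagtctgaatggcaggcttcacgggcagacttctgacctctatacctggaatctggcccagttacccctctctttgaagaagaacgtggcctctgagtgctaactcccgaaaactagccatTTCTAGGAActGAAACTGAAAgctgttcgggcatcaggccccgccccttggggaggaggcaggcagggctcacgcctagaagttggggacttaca
Tgtp1: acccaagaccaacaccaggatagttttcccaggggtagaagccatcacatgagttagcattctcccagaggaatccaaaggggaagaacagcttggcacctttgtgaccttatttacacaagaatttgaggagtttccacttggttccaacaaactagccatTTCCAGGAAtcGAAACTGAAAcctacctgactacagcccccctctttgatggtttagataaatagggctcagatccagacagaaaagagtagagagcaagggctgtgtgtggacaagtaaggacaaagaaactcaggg

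In each promoter both patterns stood next to one another. They began 45 and 34 bases before the start site of Igtp and 88 and 77 bases before that of Tgtp1. The ISRE letters were found in 18 of the 27 promoters available for the 37 interferon-stimulated genes (66.7%) and in 3.84% of all promoters, and the GAS letters in 8 of 27 (29.6%) and 8.42%. The list was drawn up as genes known to answer interferon, so these matches say nothing about which liver expressed them.

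Antigen presentation genes were lowest in the same liver. Of 29 histocompatibility and antigen processing genes above the filter (38 in the table), 15 (51.7%) were variable. Replicate 3 was lowest for all 15 and replicate 1 highest for 14. Psmb9, a subunit of the immunoproteasome, measured 135, 84.3 and 33.7 TPM. The class I heavy chains H2-D1 (872, 691 and 528 TPM) and H2-K1 (843, 686 and 442 TPM) kept the order with ratios of 1.65 and 1.91. H2-Q8 had the largest ratio, at 31.6, 17.5 and 5.73 TPM, in a gene family whose members resemble one another. With replicate 3 set aside, 0 of 30 genes were variable. T and NK cell markers, given above as 27.5, 21.7 and 8.45 TPM in sum, were lowest in the same liver, and their part in these results was not tested.

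Leukocyte and macrophage genes varied with less order. Of 69 above the filter, 29 (42.0%) were variable, 17 of them highest in replicate 1, 7 in replicate 2 and 5 in replicate 3. The integrin gene Itgam, a marker of infiltrating myeloid cells, measured 35.5, 7.02 and 19.3 TPM, and Ly6c2, a marker of inflammatory monocytes, measured 11.2, 14 and 2.08 TPM. Gpnmb, found in lipid-laden macrophages, was at 44.1, 68.7 and 109 TPM, the reverse order of Marco, a scavenger receptor of Kupffer cells, at 21.4, 16.6 and 9.08 TPM. No single liver was therefore high or low in all macrophage genes. Leaving out replicate 3 left 9 of 70 genes variable.

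Matrix genes were the main group with replicate 3 on top. Of 67 collagen and matrix genes above the filter (99 in the table), 25 (37.3%) were variable and 19 of these were highest in replicate 3. Fmod, the collagen-binding fibromodulin, gave 3.09, 2.07 and 7.48 TPM, Lum, its relative lumican, gave 40.8, 63.8 and 90.8 TPM, and periostin (Postn) gave 11.2, 19.9 and 24.7 TPM. Thbs1, a thrombospondin that activates transforming growth factor beta, differed in having replicate 1 highest, at 5.13, 1.00 and 3.99 TPM. The median log2 distance from the mean was -0.28, -0.16 and 0.38 over the 67 genes. Without that liver, 5 of 65 genes were variable. Stellate cell markers overlap with this class in 6 of 17 genes above the filter.

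**Figure D5:**
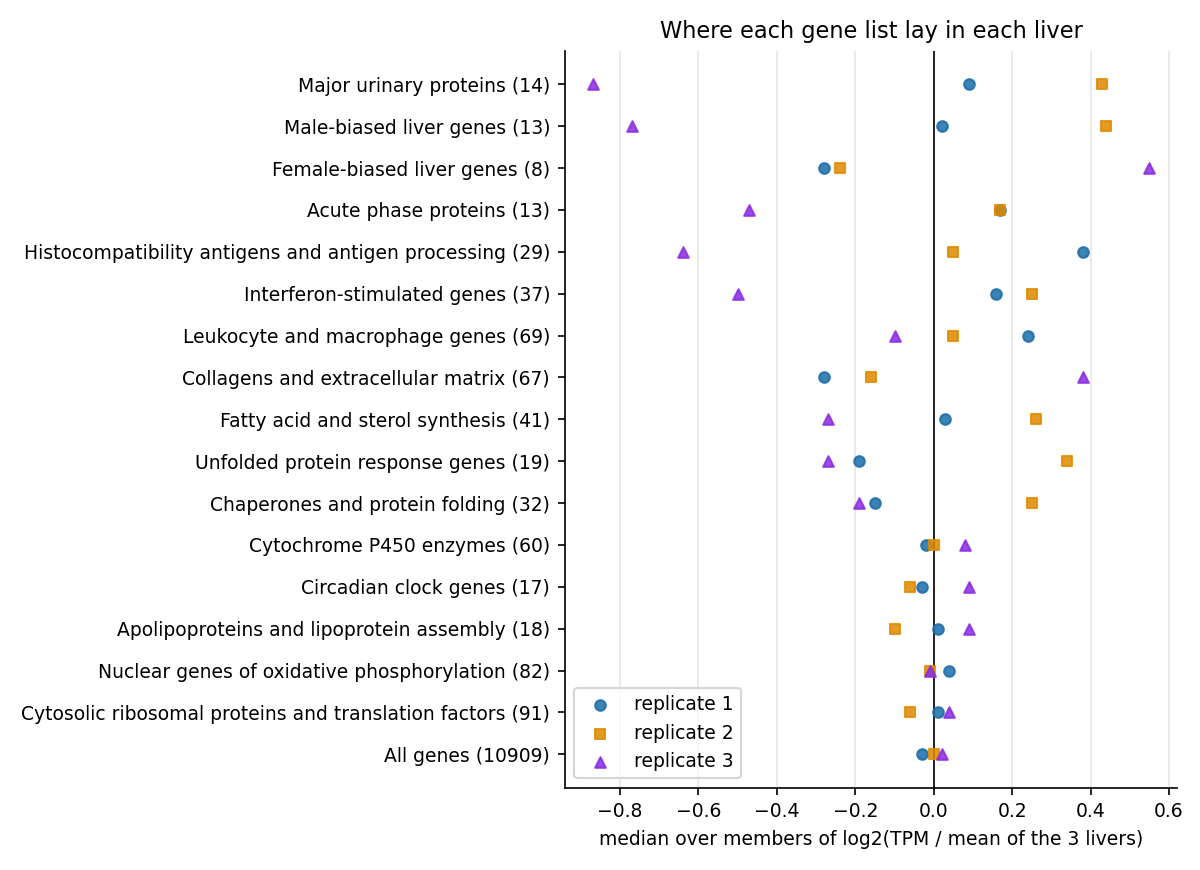
Median over the members above the filter (number in brackets) of the log2 ratio of TPM to the mean of the 3 livers, by gene list and replicate. Replicate 3 lies at -0.87 for major urinary proteins, -0.64 for histocompatibility genes and -0.50 for interferon-stimulated genes, but at 0.38 for collagens and 0.55 for female-biased genes, while all genes lie between -0.03 and 0.02.

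Sterol synthesis and protein folding genes were mostly highest in replicate 2. Of 41 fatty acid and sterol synthesis genes above the filter, 12 (29.3%) were variable, all 12 lowest in replicate 3 and 10 of them highest in replicate 2. Sqle, the enzyme of cholesterol synthesis that makes squalene epoxide, measured 68.9, 77.5 and 21.2 TPM. Fasn, the fatty acid synthase, had the same order with a ratio of 1.56, at 20.3, 25.4 and 16.3 TPM. Scd1, a fatty acid desaturase, had replicate 2 lowest, at 532, 342 and 527 TPM. If replicate 3 was omitted, 0 of 41 were variable. Genes of the unfolded protein response included the endoplasmic reticulum chaperones Hspa5 (323, 555 and 283 TPM) and Hsp90b1 (372, 617 and 350 TPM) and the secreted factors Manf (54.1, 89.8 and 37.5 TPM) and Creld2 (27.6, 53.0 and 21.7 TPM). In these 4 genes replicate 2 lay above both other livers. Herpud1, also in the list, was at 345, 347 and 286 TPM, with replicates 1 and 2 together and replicate 3 lowest. Of 19 unfolded protein response genes above the filter, 14 were highest in replicate 2, against 3727 of all 10909 genes examined. Of the 19, 5 (26.3%) were variable and 4 of these were highest in replicate 2. Omitting replicate 2 left 1 of 20 variable.

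Several other classes had few variable genes. Of 91 ribosomal and translation genes above the filter, 0 were variable, and the largest ratio was 1.51. Of 82 oxidative phosphorylation genes 0 were variable, with ratios up to 1.41, and of 18 apolipoprotein and lipoprotein assembly genes 0 were variable, with ratios up to 1.74. Coagulation had 1 variable gene of 26 (3.85%), F8 at 2.78, 6.69 and 2.87 TPM, a clotting factor made by liver endothelium. Complement had 1 of 30 (3.33%), C6 at 85.6, 108 and 44.6 TPM. The urea cycle and amino acid class had 1 of 56 (1.79%), the aminotransferase Got1 at 91.2, 42.9 and 80.0 TPM. With 5.15% over all genes, the counts for the apolipoprotein, coagulation, complement, and urea cycle and amino acid classes are near the background. Further classes had shares above 5.15%. The P450 class had 13 variable genes of 60 (21.7%), 8 of them highest in replicate 3. Without that replicate 1 of 59 P450 genes was variable. Serine protease inhibitors had 6 variable genes of 27 (22.2%) and plasma carrier proteins 6 of 32 (18.8%). Chaperones and protein folding genes had 5 of 32 (15.6%), and cytoskeleton and contractile protein genes 5 of 41 (12.2%). The 166 variable genes that belong to a class are the smaller part of the 562, and 396 belonged to none, which is 4.00% of the 9903 genes above the filter outside the classes.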

How the data were processed

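Liver RNA of 9 CCl4-treated mice was sequenced as single reads of 50 bases, and the 3 NC + CCl4 libraries, grouped by their labels, were analysed. The authors deposited a table of expected counts, FPKM and TPM for each gene, made with RSEM. BWA and Bowtie2 are also listed in the submitters' processing notes (versions not given), as is the build hg19. Since the gene numbers belong to mouse genes, no coordinates were taken from the table. TPM values as deposited by the authors were used for levels, expected counts (8.20% of them not whole) for counting error, and FPKM deposited by the authors for an alternative. In 22 rows a symbol that had become a date was restored through the gene number, and 17198 gene numbers were found in RefSeq.

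Genes with a mean of at least 1 TPM and 50 expected counts were examined for the highest-to-lowest ratio, with 2 as the threshold. Shares, ratios and counting errors were computed in Python 3.11.15, and the common dispersion on rounded counts, without covariates, in edgeR 4.0.16 (R 4.3.3). Both were tested on simulated counts. No p-value was computed. 26 exclusive gene classes, 16 marker lists and 7 state lists were used. Members and lists were chosen with earlier results of these data known. The genes named were the 25 highest, the 15 most variable with a gene name, and per list the 3 highest and 2 most variable. Ddx3y, Fmo2, Saa3, Hamp2, Lbp, Fasn and the genes at the ratio threshold were named after their values were seen. Promoters are from RefSeq (GRCm38.p6) and transcripts from GENCODE M21. No library was found under 2 names. Alternatives were expected counts, FPKM, other filters, thresholds, a pseudocount of 1, TMM and median-of-ratios (DESeq2 1.42.0) scaling, and leaving out each library. Mitochondrially encoded genes and some other genes are not reported here.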

Additional observations from a re-analysis of the deposited data

How the results depend on the processing

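The share of the 7 plasma protein classes was 34.4% of expected counts and 31.9% of TPM when Alb and the major urinary proteins were left out of the pool, against 38.7% as reported, and 38.5 to 38.9% when each replicate was left out. Of the 26 classes, 22 moved by more than 1 SD on expected counts, and 14 of 25 without Alb and the major urinary proteins. On FPKM or without any replicate 0 moved, but neither setting could have moved a class. TPM is FPKM rescaled to a fixed total, so the shares are the same. Leaving out 1 of 3 values cannot move their mean by 1 SD. The number of expressed genes was 12769 at a mean TPM of 0.5, 8612 at 5, and 11846 to 11884 when each replicate was left out. The count of variable genes, 562, was 349 with a pseudocount of 1 TPM, 340 at a mean TPM of at least 5, 1732 at a ratio of 1.5, 145 at a ratio of 3 and 2432 without a filter. Leaving out each replicate in turn gave 143 to 386. TMM scaling gave 549. The common biological coefficient of variation was 13.3 to 18.1% when each replicate was left out. Under TMM and median-of-ratios scaling the liver with the lowest median stayed the same for major urinary, acute phase, histocompatibility, interferon-stimulated, sterol synthesis, collagen and sex-biased genes. The highest liver changed for acute phase genes, whose replicates 1 and 2 had equal medians in TPM. No paired analysis was possible because the livers belong to a single group.

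At 15967731 to 16816431 counts per library, a gene with 50 counts has a counting error above the median spread between livers, so ratios of the lowest genes are the least certain. With 3 mice of a single group, no difference between livers was tested.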

Other observations

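Clock, feeding and immediate early genes are given as values. Of 17 circadian clock genes above the filter, 0 were variable, and Dbp, a clock output gene with a strong daily rhythm, was at 84.7, 84.9 and 90.3 TPM in replicates 1, 2 and 3. Of 18 fasting-induced genes 4 were variable, with the gluconeogenic gene Pck1 at 1487, 1156 and 1302 TPM, Igfbp1 at 33.9, 57.8 and 17.7 TPM and Cyp4a14 at 209, 104 and 282 TPM. Of 14 feeding-induced lipogenic genes 2 were variable, with Angptl8, a fed-state inhibitor of lipoprotein lipase, at 42.0, 76.3 and 127 TPM. Of 16 immediate early genes 3 were variable, with Dusp1 at 29.0, 63.4 and 28.8 TPM, Myc at 9.10, 18.1 and 8.12 TPM and Klf4 at 2.72, 1.09 and 2.33 TPM.

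Transcripts of red cells differed up to 1.43-fold. The hemoglobin genes Hba-a1 and Hba-a2 were at 1442, 1048 and 1399 TPM and at 1062, 744 and 968 TPM, and they share 72.3% and 89.3% of their windows. Hbb-b1 was at 1493, 1087 and 1306 TPM, while Hbb-bs was listed at 0 in every library. Cell cycle genes were low. Of 32 cell cycle genes above the filter 4 were variable, all highest in replicate 2, with the replication helicase subunit Mcm5 at 2.97, 6.32 and 1.59 TPM and the nucleotide reductase subunit Rrm2 at 1.33, 4.57 and 2.07 TPM.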
